A study of Mus musculus with 12 samples.

Results

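Heat shock proteins and their cochaperones were followed through chemical long-term potentiation (LTP) in mouse hippocampal slices. A list of 35 chaperone genes was used, chosen by name, and 34 of them were found among the 41091 Ensembl gene IDs of each count table through the symbols of GENCODE M21. The ID that this annotation gives to Hspa14 was not among them, so Hspa14 has no expression value here and enters only the promoter search. RNA-seq of total RNA depleted of ribosomal RNA covered 4 groups of 3 libraries each, LTP and control slices at 1 hr and LTP and control slices at 3 hr. All slices came from wild-type C57BL/6 mice aged 2 to 3 months, male by the study's methods, and had the dentate gyrus cut away. LTP slices were perfused with 50 uM forskolin, which activates adenylyl cyclase, for 5 min, after which 30 mM KCl and 10 mM calcium were added to the forskolin up to a total of 10 min. Control slices of the same animal received 0.2% DMSO over the same 10 min, and tissue was frozen 1 hr or 3 hr after treatment. The study made libraries only from slices in which PCR had shown the immediate early gene Arc to be induced. Animals were treated as different at 1 hr and 3 hr, so time after treatment and animal cannot be told apart.

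Heat shock proteins bind unfolded or unstable proteins and help them fold, assemble or be degraded. HSP70 proteins work in cycles of ATP hydrolysis that J proteins start and that HSP110 and BAG proteins end by nucleotide exchange, while HSP90 matures kinases and steroid receptors with its own set of cochaperones. Small HSPs hold unfolded proteins without ATP, and Hspd1 with its lid Hspe1 folds proteins inside mitochondria. Many of these genes are induced by heat shock factor 1, which binds heat shock elements in their promoters, and neurons use the constitutive members Hspa8 and Hsp90 at synapses.

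Promoters are shown because heat shock elements and cAMP response elements are known routes of stress and cAMP signals to genes, and the windows differ in whether they hold such letters. Windows from 250 bases before to 50 bases after the annotated start were taken from RefSeq (GRCm38.p6) and existed for 28 of the 35 genes, Hspa14 included. A heat shock element was searched on both strands as the paired units GAANNTTC or TTCNNGAA, and a longer form as the same letters followed by NN and a further unit. The pair was present in 13 of those 28 members (46.4%), beside 17.0% of 26994 genes with a window. The longer form, whose matches always contain matches of the pair, occurred in Chordc1, Dnajb6, Hspd1, Hspe1 and Hsph1, or 17.9% of the 28 members, beside 0.663% of all genes. The windows of Hspd1 and Hspe1 overlap and hold the same heat shock site on opposite strands, so it was counted for both genes. The full cAMP response element TGACGTCA occurred in 0 of the 28 members and in 2.03% of all genes. Its core TGACG, which is part of the full element, was also searched on both strands, so it can read CGTCA. The core occurred in 19 of the 28 (67.9%), beside 23.0% of all genes. Capitals in the following windows, each read 5′ to 3′ on the strand of its gene, mark heat shock elements.
Hspa1a (chr17:34972107-34972406, minus strand): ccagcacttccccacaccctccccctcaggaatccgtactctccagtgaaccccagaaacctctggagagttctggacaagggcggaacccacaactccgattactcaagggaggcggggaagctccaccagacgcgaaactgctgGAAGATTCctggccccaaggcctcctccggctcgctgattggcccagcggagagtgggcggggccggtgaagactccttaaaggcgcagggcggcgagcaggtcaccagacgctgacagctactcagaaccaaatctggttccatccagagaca
Hspa1b (chr17:34959189-34959488, minus strand): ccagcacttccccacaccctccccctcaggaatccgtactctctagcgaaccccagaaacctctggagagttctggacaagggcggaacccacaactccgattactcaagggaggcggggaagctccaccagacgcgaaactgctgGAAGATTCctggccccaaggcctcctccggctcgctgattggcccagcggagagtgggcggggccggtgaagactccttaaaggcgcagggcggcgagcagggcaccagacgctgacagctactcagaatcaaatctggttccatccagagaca
Hspe1 (chr1:55087898-55088197, plus strand): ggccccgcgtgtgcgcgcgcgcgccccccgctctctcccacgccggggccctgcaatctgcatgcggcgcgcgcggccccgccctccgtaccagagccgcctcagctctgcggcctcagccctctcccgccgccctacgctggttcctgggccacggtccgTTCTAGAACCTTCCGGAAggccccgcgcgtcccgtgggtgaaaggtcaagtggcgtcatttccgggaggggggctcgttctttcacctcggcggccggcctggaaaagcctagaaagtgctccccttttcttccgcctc
Chordc1 (chr9:18292017-18292316, plus strand): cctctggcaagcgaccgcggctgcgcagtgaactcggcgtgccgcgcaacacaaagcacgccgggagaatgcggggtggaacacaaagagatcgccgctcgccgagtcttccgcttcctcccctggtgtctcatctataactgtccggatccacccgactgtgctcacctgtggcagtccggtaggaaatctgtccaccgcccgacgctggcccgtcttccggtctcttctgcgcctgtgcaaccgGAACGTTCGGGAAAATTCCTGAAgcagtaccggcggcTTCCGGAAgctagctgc
Bag3 (chr7:128523333-128523632, plus strand): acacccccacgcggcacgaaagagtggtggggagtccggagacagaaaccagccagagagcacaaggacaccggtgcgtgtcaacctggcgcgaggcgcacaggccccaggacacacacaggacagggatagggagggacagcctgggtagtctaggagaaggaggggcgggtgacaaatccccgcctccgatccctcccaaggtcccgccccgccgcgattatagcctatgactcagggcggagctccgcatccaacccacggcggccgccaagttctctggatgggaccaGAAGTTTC
Dnajb1 (chr8:83607925-83608224, plus strand): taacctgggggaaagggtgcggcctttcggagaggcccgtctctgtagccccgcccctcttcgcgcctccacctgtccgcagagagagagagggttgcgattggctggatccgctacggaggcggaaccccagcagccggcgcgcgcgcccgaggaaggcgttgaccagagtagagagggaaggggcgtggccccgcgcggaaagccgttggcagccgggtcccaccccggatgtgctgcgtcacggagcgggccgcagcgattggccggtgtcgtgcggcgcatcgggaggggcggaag

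Hspa1a and Hspa1b, the classic inducible HSP70 genes, held the pair GAAGATTC at the same place, 104 bases before the start, and their windows were identical at 296 of 300 positions. Hspe1 held overlapping units from 89 to 72 bases before its start, on the side that it shares with the oppositely transcribed Hspd1, whose annotated gene overlaps that of Hspe1 by 112 bases. Chordc1 held a run of units across its start. Dnajb1 had no match to the heat shock letters in its windows. It held the cAMP element core on the opposite strand, 11 bases before its start. On the gene's own strand the core reads CGTCA, shown in capitals with 8 bases on each side.
Dnajb1 element core (chr8:83608156-83608176, plus strand): atgtgctgCGTCAcggagcgg

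The 12 libraries held from 37118382 to 50815001 counts, and the 34 genes took from 0.803% to 0.994% of them. A floor of 3 counts corresponded to at most 0.0808 CPM (counts scaled to library size, with TMM factors over the 12 libraries). All 34 genes had at least 9 counts in every library and were tested in every comparison. The study set 1 hr control replicate 2 aside as an outlier of its clustering, and it is left out of the tests below unless stated. Slices are mixtures of cell types, so fewer cells of a type and less RNA per cell cannot be told apart. Counts of neuronal, astrocytic, oligodendrocytic, microglial and vascular marker genes were above 0 in every library. The dentate granule cell markers were too, at 117 to 218 CPM in sum, although that region had been trimmed.

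Per kb of exonic length, the chaperones Hsp90ab1 (547 CPM per kb as a mean over 12 libraries), Hspa8 (496) and Hsp90aa1 (362) stood far above the other members. Stip1, which links HSP70 to HSP90, followed at 85.4 CPM per kb and the HSP70 partner Dnaja2 at 84.0, and these neighbours did not separate. The mitochondrial HSP70 Hspa9 had 73.5, the chaperonin Hspd1 71.9 and the exchange factors Hspa4 and Hsph1 65.5 and 52.9 CPM per kb. Other heat shock genes lay near the bottom of the order: Hspa1b had 4.87, Hspa1a 3.74, Hspb1 3.52 and their regulator Hsf1 2.81 CPM per kb. The study's text says that reads in coding regions were used for expression, and whether the deposited counts are restricted in this way is not stated, so the length that fits the counts is not known. Hspa1l, an HSP70 known from testis, was lowest at 0.176 CPM per kb, with 9 to 26 counts per library. The annotated exons of a gene on the opposite strand covered 71.9% of Hspa1l, and the kit keeps strand, but the strand setting of the counting is not given, so its counts cannot be assigned to Hspa1l alone. The reading frames of Hspa1a and Hspa1b were identical at 99.4% of 1929 aligned positions, with 638 bases in the longest identical stretch, so the division of reads between them depends on how multiply aligned reads were treated.

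**Figure D1:**
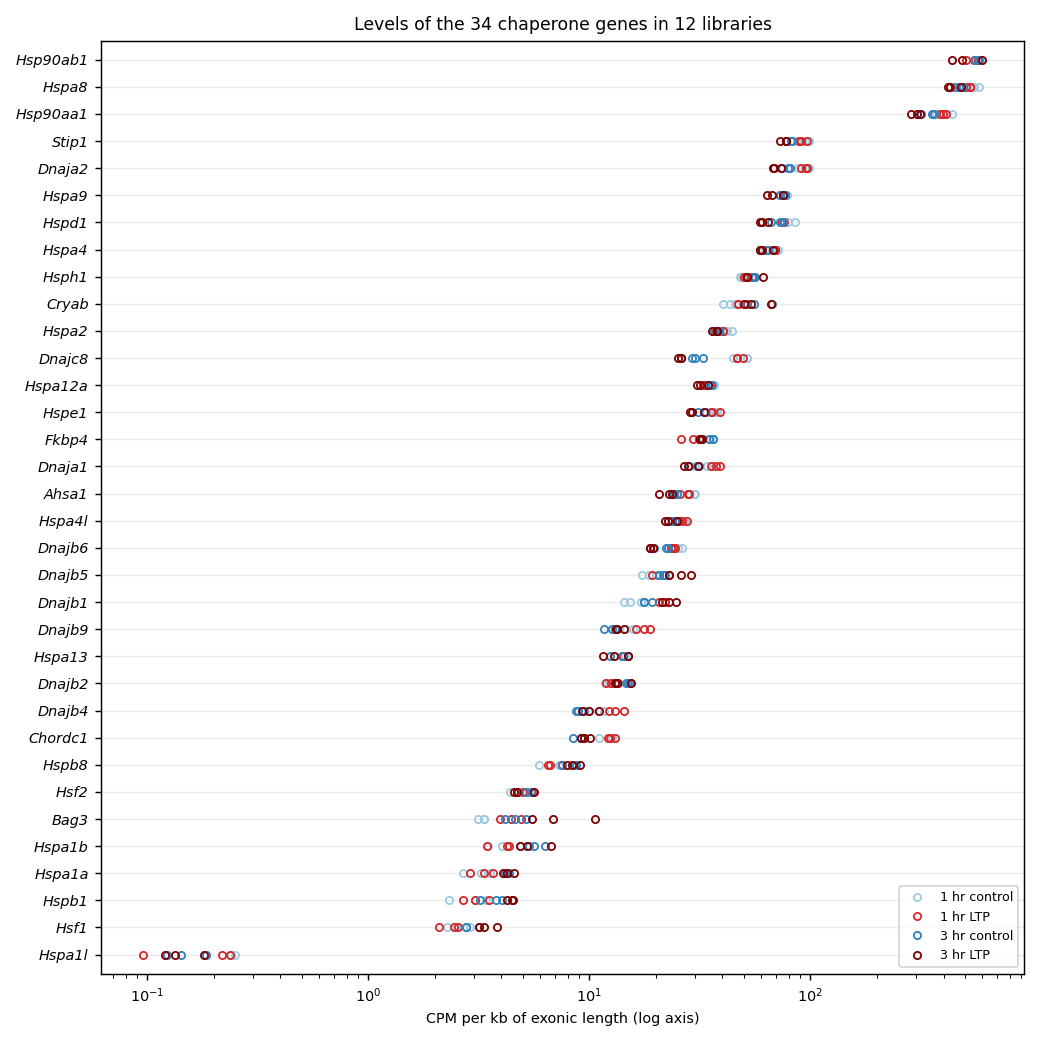
Level of each of the 34 genes in each of the 12 libraries, as CPM per kb of exonic length on a log axis, with genes in the order of their mean and circles coloured by group. Hsp90ab1, Hspa8 and Hsp90aa1 lie above 280 CPM per kb in every library, and Hspa1l lies below 0.3.

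The early comparison asked which chaperone genes differed 1 hr after LTP induction. Only the J protein gene Dnajb1, whose product activates HSP70 and is a known heat shock target, passed the test at 1 hr. It is on chromosome 8 (83608193 to 83612653, plus strand). Dnajb1 had 49.1 and 45.7 CPM in 1 hr control replicates 1 and 3, and 70.4, 66.4 and 70.3 CPM in the 1 hr LTP replicates. The LTP libraries all lay above the controls, and above the 55.3 CPM of the control library set aside. The gene rose by 0.55 on the log2 scale (SE 0.0755, 1.47-fold), with an adjusted p of 0.00143 (edgeR quasi-likelihood test with Benjamini-Hochberg adjustment over all genes tested). With the library set aside included, the log2 fold change was 0.47 and the adjusted p from the same test was 0.0116.

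A gene was called where its adjusted p was below 0.1 and its fold difference exceeded 1.2. By this rule 1 of 34 members was called at 1 hr, beside 0.789% of 17736 genes tested. With 1 library left out, the genes called over all genes ran from 69 (without 1 hr control replicate 1) to 344 (without 1 hr LTP replicate 3), against 140 with the 5 libraries. The count was also moved by over 1.5 times without 1 hr control replicate 3 (78) and without 1 hr LTP replicate 1 (92). That member was higher, as were 0.778% of all genes, and 0 members beside 0.0113% of all genes were called lower. DESeq2 and limma-voom also called 0 members lower. In edgeR 7 of 34 members had an unadjusted p under 0.05, beside 1190 of 17736 genes. Of these 7 members 1, Fkbp4, had a negative fold change. The 2 groups did not overlap for 15 of 34 members, beside 22.6% of all genes. Of these members Hspa1l, Hspa8, Hspa4, Hsp90aa1, Hspd1, Dnajb6, Dnajc8, Ahsa1 and Fkbp4 lay lower after LTP. Cryab, Dnajb1, Dnajb4, Dnajb5, Dnajb9 and Bag3 lay higher. The median log2 fold change of the members was -0.01, and that of all genes was -0.001.

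Bag3 (chromosome 7, 128523616 to 128546981, plus strand), a nucleotide exchange factor that directs HSP70 clients to autophagy, had 8.50 and 8.08 CPM in 1 hr controls and 12.6, 11.3 and 10.1 CPM after LTP. The LTP libraries were all higher, and the control library set aside held 8.53 CPM. The log2 fold change of 0.46 (SE 0.126) did not pass, with an adjusted p of 0.215 in edgeR's quasi-likelihood test. Other J protein genes also had positive values without passing. Dnajb4 had a log2 fold change of 0.25 (SE 0.0800), Dnajb5 of 0.23 (SE 0.0797) and Dnajb9, which serves the endoplasmic reticulum, of 0.23 (SE 0.0854). For all of these the LTP libraries lay above the fitted controls, and adjusted p lay between 0.419 and 0.59 in edgeR's test. With the animal as a block in the 5 libraries, Dnajb5 passed together with Dnajb1, which made 2 members called. With the block in all 6 libraries Dnajb5 had 0.175 and an adjusted p of 0.87 in edgeR's test, and the control library set aside held 119 CPM of Dnajb5, above 1 hr LTP replicate 2 with 115 CPM.

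The inducible HSP70 genes did not pass at 1 hr. Hspa1a had 9.61 and 7.98 CPM in controls and 10.9, 8.52 and 9.95 CPM after LTP, and the groups overlapped. Its log2 fold change was 0.17 (SE 0.136), and that of Hspa1b was 0.11 (SE 0.127), with adjusted p of 0.93 and 0.953 in edgeR's test. The value of Hspb1, a small HSP of the stress response, was 0.22 (SE 0.202), and that of Cryab, a small HSP abundant in oligodendrocytes, was 0.19 (SE 0.0808). With each library left out in turn, Hspa1a ran from 0.0346 to 0.302 and Hspb1 from 0.033 to 0.418. The summed CPM of 6 oligodendrocyte markers ran from 5870 to 7360 in 1 hr controls and from 7120 to 8450 in 1 hr LTP, and its part in the Cryab value was not tested. The sum of 6 endothelial and mural markers ran from 104 to 113 CPM in 1 hr controls and from 87.3 to 93.8 CPM in 1 hr LTP, with all 6 fold changes negative, 4 unadjusted p under 0.05 in edgeR and 5 of 6 not overlapping. None of these markers was called, and their part in the 1 hr values was not tested.

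The high-level chaperones had small negative values at 1 hr and were not called. Hspa8 had a log2 fold change of -0.09 (SE 0.0613), Hsp90aa1 of -0.08 (SE 0.0612) and Hsp90ab1 of -0.08 (SE 0.0648). Hsph1, an HSP110 exchange factor, had 0.05 (SE 0.0667), and the transcription factor Hsf1 had -0.01 (SE 0.107). The most negative value beside the sparse Hspa1l was that of Fkbp4, an immunophilin of the HSP90 receptor complex, at -0.19 (SE 0.0844), with an adjusted p of 0.70 in edgeR's test. In LTP libraries Hspa8 had 2260, 2160 and 2270 CPM, below the fitted controls (2480 and 2290 CPM). The library set aside, with 2360 CPM, lay above these LTP libraries too. Hsp90aa1 also lay below the fitted controls after LTP, but above the 1460 CPM of the library set aside. The groups of Hsp90ab1 overlapped.

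**Figure D2:**
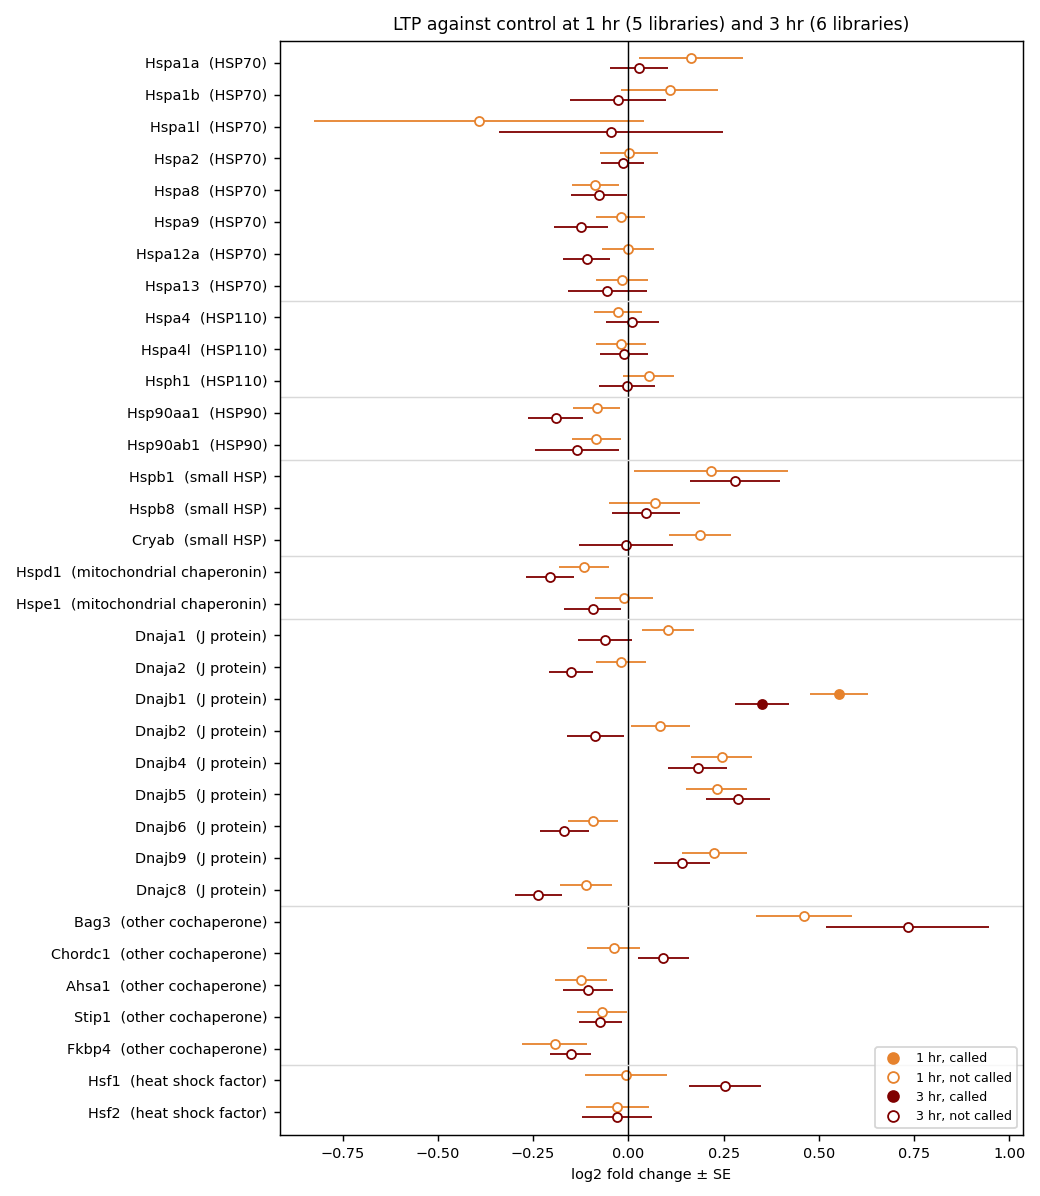
Log2 fold change of LTP against control (x axis, with bars of 1 SE) for the 34 genes ordered by role, at 1 hr in orange and at 3 hr in dark red, with filled circles for genes that passed the test. Dnajb1 is the only filled gene, at 0.55 and 0.35, and Bag3 has the largest value at 3 hr, at 0.73.

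At 3 hr Dnajb1 was again the only member that passed. It had 56.9, 56.7 and 61.4 CPM in 3 hr controls and 68.6, 78.8 and 73.6 CPM in 3 hr LTP libraries. Every LTP library lay above every control, and the LTP library of each animal lay above its own control by 0.26 to 0.47 on the log2 scale. The rise was 0.35 (SE 0.0704, 1.27-fold) with an adjusted p of 0.0338 in edgeR's quasi-likelihood test. Without 3 hr control replicate 1 the value was 0.33 with an adjusted p of 0.154 in the same test, and without 3 hr control replicate 2 it was 0.33 with an adjusted p of 0.195. The call was thus lost without either library although the value hardly changed. Calls over all genes also fell without these libraries, as given below.

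Thus 1 of 34 members was called at 3 hr, beside 6.6% of 17508 genes tested at 3 hr, where 5.07% of all genes were called higher and 1.53% lower. Over all genes 1155 were called, and this count was 313, 228 and 415 without 3 hr control replicates 1, 2 and 3, 331 without 3 hr LTP replicate 1 and 2170 without 3 hr LTP replicate 2. Called lower were 0 members by edgeR, DESeq2 or limma-voom. In edgeR 12 of 34 members had an unadjusted p under 0.05, beside 3540 of 17508 genes. Of these 12 members 6 had negative values. The groups did not overlap for 14 of 34 members, beside 27% of all genes. Of these members Hspa12a, Hsp90aa1, Hspd1, Dnaja2, Dnajb6, Dnajc8, Ahsa1 and Fkbp4 lay lower after LTP. Hspb1, Dnajb1, Dnajb5, Dnajb9, Bag3 and Hsf1 lay higher. The median log2 fold change of the members was -0.04 and that of all genes -0.002.

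Bag3 had 11.7, 13.3 and 10.6 CPM in 3 hr controls and 17.5, 14.0 and 27.3 CPM in 3 hr LTP libraries. The groups did not overlap, and LTP replicate 3 was far above the others. The log2 fold change of 0.73 (SE 0.214) missed the threshold with an adjusted p of 0.101 in edgeR's test. Without LTP replicate 3 the value was 0.41, and the log2 ratio within animals ran from 0.08 to 1.35.

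Dnajb5, a J protein of brain and muscle, had 123, 131 and 128 CPM in 3 hr controls and 155, 136 and 171 CPM after LTP. All LTP libraries were higher, by 0.29 on the log2 scale (SE 0.0838), and the adjusted p of 0.1005 in edgeR's test fell just outside the threshold. Bag3 and Dnajb5 each passed in 8 of 16 alternatives. Both passed with DESeq2, with total counts as the scale, with no filter on low counts, in the model of 4 groups, with offsets for GC content and length, and with the animal as a block (adjusted p of 0.0802 for Bag3 and 0.0649 for Dnajb5 in edgeR's test). Neither passed with limma-voom (adjusted p of 0.126 and 0.111) or with RLE size factors, and with 1 library left out adjusted p reached 0.279 for Bag3 and 0.314 for Dnajb5 in edgeR's test. Dnajc8, a J domain protein of the spliceosome, passed the adjusted p but not the fold minimum, with a log2 fold change of -0.24 (SE 0.0615) and an adjusted p of 0.0742 in edgeR's test. It had 76.9, 83.1 and 74.5 CPM in 3 hr controls and 66.4, 66.5 and 64.3 CPM after LTP, so the groups were apart.

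Of the other members with an unadjusted p under 0.05 at 3 hr, Hsf1, Hspb1 and Dnajb4 had positive values. Hsf1 had 19.7, 19.7 and 22.5 CPM in controls and 23.7, 22.5 and 27.0 CPM after LTP, with the groups just apart, and a log2 fold change of 0.25 (SE 0.0951). Hspb1 had 0.28 (SE 0.118) and Dnajb4 0.18 (SE 0.0773). Negative values were those of the chaperonin gene Hspd1 (-0.21, SE 0.0633), Hsp90aa1 (-0.19, SE 0.0729), Dnajb6 (-0.17, SE 0.0651), Fkbp4 (-0.15, SE 0.0544) and Dnaja2 (-0.15, SE 0.0580). The adjusted p of these 8 genes in edgeR's test lay between 0.115 and 0.23. Hspa1a and Hspa1b had values of 0.03 (SE 0.0770) and -0.03 (SE 0.126), and their groups overlapped. Hspa8 had -0.08 (SE 0.0729), Hsph1 -0.004 (SE 0.0741) and Cryab -0.01 (SE 0.123). Of the 4 dentate granule cell markers 1, Calb2, was called lower after LTP at 3 hr, while 2 of the 4 had positive values. The other cell type marker lists held 0 calls there. The part of these markers in the 3 hr values was not tested.

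The difference between the LTP effects at 3 hr and 1 hr was tested directly in the model of 4 groups. 0 of 34 members passed, beside 0.0592% of 18584 genes. DESeq2 and limma-voom also called 0, and 0 members had an unadjusted p under 0.05 in edgeR, beside 1225 of the 18584 genes. For Dnajb1 the effect at 3 hr minus that at 1 hr was -0.20 on the log2 scale (SE 0.0997), with an adjusted p of 0.804 in edgeR's test. For Hsf1 the difference was 0.27 (SE 0.149), for Bag3 0.28 (SE 0.284) and for Hspa1a -0.13 (SE 0.153).

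Controls were compared between time points to see how chaperone levels differed without LTP induction. Here 17 of 34 members passed, 7 higher and 10 lower at 3 hr, beside 32.8% of 18584 genes, of which 16.1% were higher and 16.8% lower. All 3 small HSP members and both inducible HSP70 genes rose, while Hsp90aa1, Hspa8, 3 of 4 HSP90 cochaperones and 5 of 9 J protein genes fell. The median log2 difference of the members was -0.11, and that of all genes was -0.02. With total counts in place of TMM as the scale, 17 members were called as well, but 10 higher and 7 lower.

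**Figure D3:**
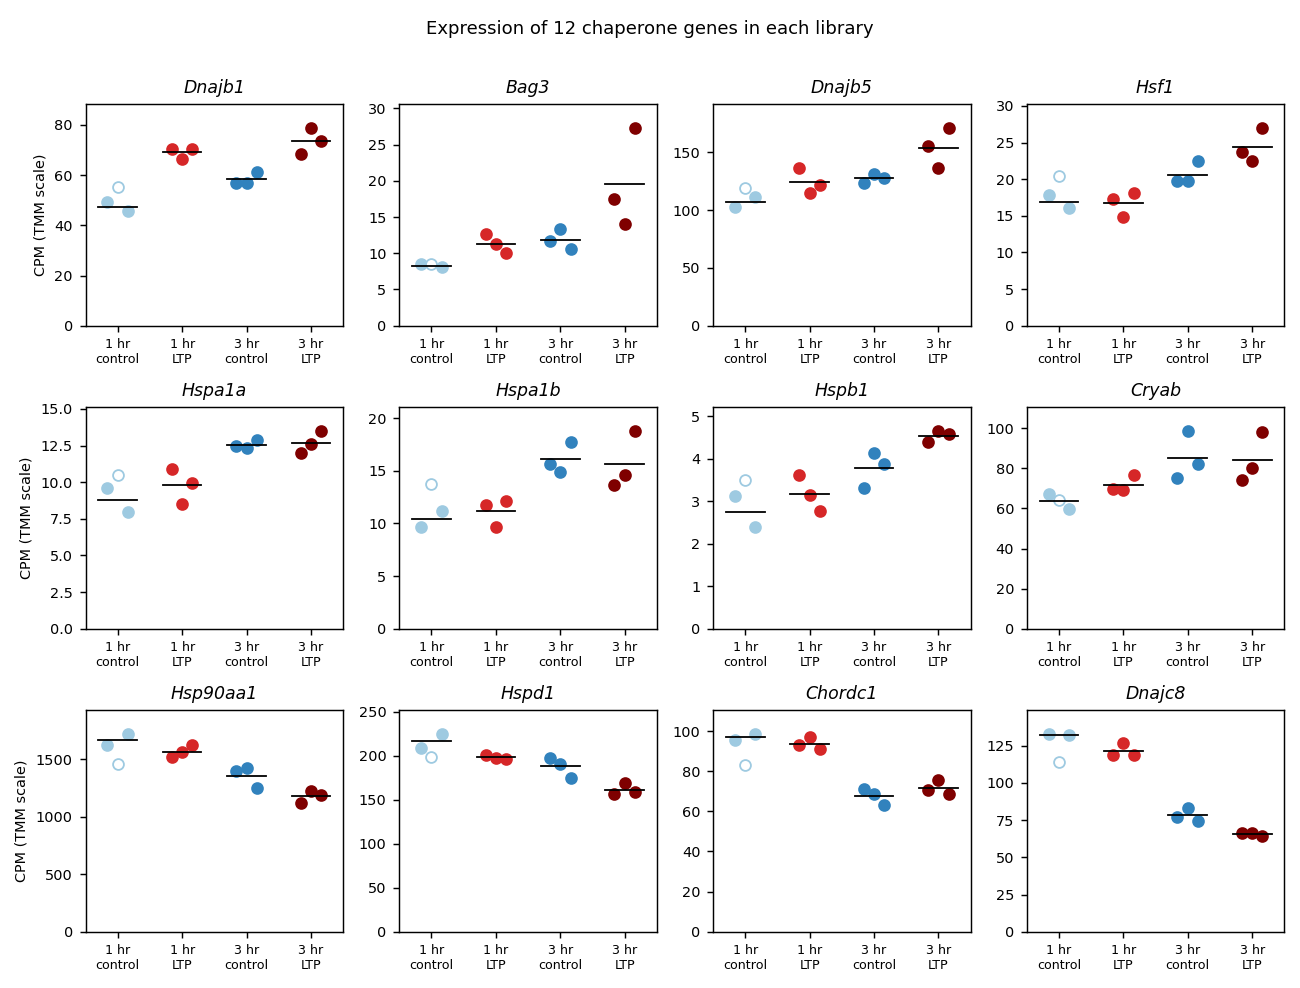
CPM of 12 genes in each library, with 1 circle per library in the order of replicates 1, 2 and 3, a bar at the mean of the fitted libraries and an open circle for 1 hr control replicate 2, which was left out of the fits. Dnajb1 is higher after LTP at both times, Bag3 holds 1 library at 27.3 CPM, and Chordc1 and Dnajc8 are lower in all 3 hr libraries than in any 1 hr library.

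Among HSP70 genes, Hspa1a had 9.61 and 7.98 CPM in 1 hr controls and 12.5, 12.3 and 12.9 CPM in 3 hr controls. It rose by 0.49 on the log2 scale (SE 0.116), with an adjusted p of 0.00677 in edgeR's quasi-likelihood test. Hspa1b, which had 9.71 and 11.2 CPM at 1 hr and 15.7, 14.9 and 17.7 CPM at 3 hr, rose by 0.59 (SE 0.145, adjusted p of 0.00798 in the same test). The 3 hr libraries of both genes lay above the fitted 1 hr controls, and above the 10.5 and 13.8 CPM of the library set aside. The constitutive Hspa8 fell by 0.27 (SE 0.0719), from 2480 and 2290 CPM to 2030, 2110 and 1940 CPM, which only just exceeded the fold minimum. Hspa2, Hspa9, Hspa12a and Hspa13 had values between -0.13 and 0.01 and were not called, and the sparse Hspa1l had -0.74 (SE 0.376).

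The 3 small HSP genes among the members were all called higher in controls. Hspb1 rose by 0.43 (SE 0.164), from 3.13 and 2.39 CPM to 3.31, 4.14 and 3.89 CPM. Cryab rose by 0.39 (SE 0.124), from 67.4 and 59.8 CPM to 75.0, 98.7 and 82.0 CPM. Hspb8, which works with Bag3 in the clearance of aggregates, rose by 0.29 (SE 0.113), and adjusted p of the small HSP genes in edgeR's test lay between 0.0276 and 0.064. Without 1 hr control replicate 3 Hspb1 had 0.28 and Hspb8 0.18, and without 1 hr control replicate 1 they had 0.67 and 0.50. The groups did not overlap for any of the 3, though the 3.5 CPM of Hspb1 in the library set aside lay within the 3 hr range. Markers of oligodendrocytes, where Cryab is abundant, had a summed level of 7850 to 9500 CPM in 3 hr controls, and 3 of 6 (Mbp, Mag and Cnp) were called higher. Their part in the Cryab rise was not tested. The opposite-strand gene Hspb2 covered 17.0% of the Cryab exons. Among 4 further small HSP genes tested, 1 was called higher and 1 lower, with 3 values below 0 and a median of -0.32.

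Among HSP90 genes, Hsp90aa1, the inducible form, fell by 0.33 (SE 0.0735), from 1620 and 1720 CPM to 1400, 1420 and 1250 CPM, with an adjusted p of 0.00457 in edgeR's test. The constitutive Hsp90ab1 had -0.08 (SE 0.107) and was not called. Of the 4 HSP90 cochaperones among the members, Chordc1, Ahsa1 and Stip1 fell, and Fkbp4 was not called. Chordc1, an HSP90-binding zinc protein, had 95.4 and 98.6 CPM in 1 hr controls and 71.2, 68.8 and 63.1 CPM in 3 hr controls, a fall of 0.55 (SE 0.0690, adjusted p of 0.000146 in edgeR's test). Ahsa1, the activator of the HSP90 ATPase, fell by 0.33 (SE 0.0687), and Stip1 fell by 0.30 (SE 0.0624). Fkbp4 had 0.07 (SE 0.0771). Among 12 further HSP90 cochaperone genes, 2 were called higher and 2 lower, with a median of 0.07. Hsph1, Hspa4 and Hspa4l of the HSP110 family were not called, and neither were Hspd1 and Hspe1, which had nearly equal values of -0.23 (SE 0.0665) and -0.23 (SE 0.0773).

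The J protein genes divided. Dnajc8 fell by 0.79 (SE 0.0637), from 133 and 132 CPM to 76.9, 83.1 and 74.5 CPM, the smallest p among the 34 genes, with an adjusted p of 1.42e-05 in edgeR's test. Dnaja2 fell by 0.33 (SE 0.0640), Dnajb4 by 0.35 (SE 0.0855), Dnajb6 by 0.28 (SE 0.0665) and Dnajb9 by 0.32 (SE 0.0828). Dnajb1 rose by 0.27 (SE 0.0749) and Dnajb2, a J protein of neurons, by 0.29 (SE 0.0832). Dnaja1 with -0.25 (SE 0.0760) and Dnajb5 with 0.22 (SE 0.0944) stayed under the fold minimum. Hsf1 (0.26, SE 0.112) stayed under it too, but was called in 15 of 21 alternatives, with values of up to 0.37, and had -0.01 once GC content and length were offset. Bag3 (0.49, SE 0.216) missed the adjusted p at 0.101 in edgeR's test, and Hsf2 had -0.06 (SE 0.0959).

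**Figure D4:**
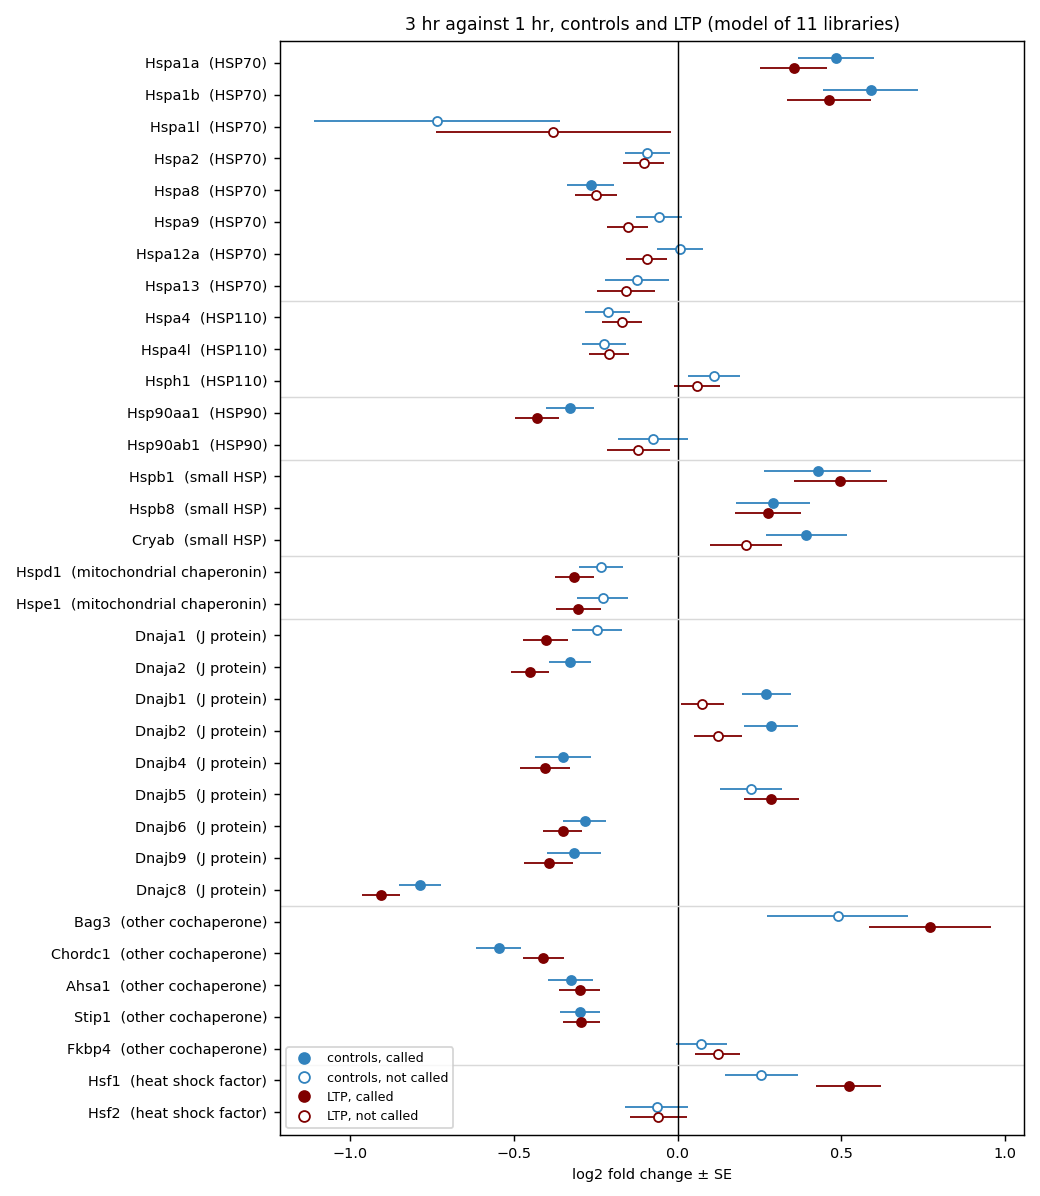
Log2 fold change of 3 hr against 1 hr (x axis, with bars of 1 SE) for the 34 genes ordered by role, in controls in blue and in LTP slices in dark red, from the model of 11 libraries, with filled circles for genes that passed the test. The small HSP genes and Hspa1a and Hspa1b lie to the right, and Hsp90aa1, the chaperonin genes, Chordc1, Ahsa1, Stip1 and most J protein genes lie to the left.

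The calls between controls differed in how many of 21 alternatives lost them. Hspa1b, Dnajc8, Chordc1 and Ahsa1 were lost in 0, Hspa1a, Cryab and Dnajb2 in 1, Dnaja2 and Dnajb4 in 3, and Hsp90aa1, Hspb8, Dnajb1, Dnajb9 and Stip1 in 4. Hspb1 was lost in 6, Dnajb6 in 10 and Hspa8 in 16, and Dnajb6 ran from -0.30 to -0.20 on the log2 scale. The library set aside bears on these counts. With 1 hr control replicate 2 included, 9 members were called, and 8 of them were among the 17: Hspa1a, Hspa1b, Hspb8, Cryab, Dnajb2, Dnajc8, Chordc1 and Ahsa1. The ninth was Bag3. Over all genes the count was 4991 with this library and 6102 without it. Without 1 hr control replicate 3 the count was 10, and without 3 hr control replicate 3 it was 11.

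In LTP slices 19 of 34 members passed between 3 hr and 1 hr, 7 higher and 12 lower, beside 35.9% of 18584 genes, of which 18.6% were higher and 17.3% lower. Bag3 rose by 0.77 (SE 0.186), from 12.6, 11.3 and 10.1 CPM to 17.5, 14.0 and 27.3 CPM, with an adjusted p of 0.00574 in edgeR's test. Without 3 hr LTP replicate 3, the highest library, the value was 0.46 and was still called. Hsf1 rose by 0.52 (SE 0.0996), from 17.3, 14.8 and 18.1 CPM to 23.7, 22.5 and 27.0 CPM. Hspa1a, Hspa1b, Hspb1, Hspb8 and Dnajb5 also rose, by 0.36 (SE 0.102), 0.46 (SE 0.128), 0.50 (SE 0.143), 0.28 (SE 0.1) and 0.29 (SE 0.0839). The 3 hr libraries lay above the 1 hr libraries for each of these except Dnajb5, whose groups touched at 136 CPM.

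Dnajc8 fell by 0.91 (SE 0.0583), from 119, 127 and 119 CPM to 66.4, 66.5 and 64.3 CPM, with an adjusted p of 1.64e-06 in edgeR's test. Both chaperonin genes fell, Hspd1 by 0.32 (SE 0.0599) and Hspe1 by 0.30 (SE 0.0698). Hspd1 had 201, 198 and 196 CPM at 1 hr and 157, 169 and 159 CPM at 3 hr. Hsp90aa1 fell by 0.43 (SE 0.0663), Chordc1 by 0.41 (SE 0.0625), Ahsa1 by 0.30 (SE 0.0621) and Stip1 by 0.29 (SE 0.0562). Among J protein genes Dnaja1, Dnaja2, Dnajb4, Dnajb6 and Dnajb9 fell by between 0.35 and 0.45. Dnajb1, called in each LTP comparison, had 0.08 (SE 0.0660) and was not called here.

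Members that rose and fell with time differed in base composition. In controls the exonic GC content of the 7 members called higher had a median of 56.6% (52.4% to 61.2%), and that of the 10 called lower had a median of 45.4% (38.4% to 51.5%). All genes called had the same order, with medians of 55.3% for higher and 45.4% for lower genes and 49.8% for all tested genes. With offsets per library for GC content and length, an alternative chosen after the data were seen, 7 of the 17 control calls were left: Hspa1b, Hspb8, Cryab, Dnajc8, Chordc1, Ahsa1 and Stip1. Over all genes 4561 were called with the offsets, against 6102. Of the 10 lost calls 6 still had an adjusted p below 0.1 in edgeR and missed only the fold minimum: Hspa8 (-0.249), Dnajb6 (-0.219), Hsp90aa1 (-0.194), Dnajb4 (-0.192), Dnaja2 (-0.14) and Dnajb1 (0.207). The others lost were Hspa1a, which then had 0.16, Hspb1 with 0.15, Dnajb2 with 0.04 and Dnajb9 with -0.09, while of the calls left Hspa1b had 0.31, Chordc1 -0.32 and Dnajc8 -0.64. In LTP slices 8 of the 19 calls were left: Hsp90aa1, Hspb8, Dnaja1, Dnajb4, Dnajb6, Dnajc8, Bag3 and Ahsa1. Over all genes 4995 were called, against 6676. Of the 11 lost calls 6 missed only the fold minimum: Dnaja2 (-0.26), Stip1 (-0.25), Chordc1 (-0.24), Hspd1 (-0.22), Dnajb9 (-0.16) and Hsf1 (0.26). The other 5 were Hspa1a (0.09), Dnajb5 (0.12), Hspe1 (-0.11), Hspa1b (0.23) and Hspb1 (0.29). The value of Dnajb1 between LTP and control was 0.54 at 1 hr and 0.37 at 3 hr with these offsets.

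**Figure D5:**
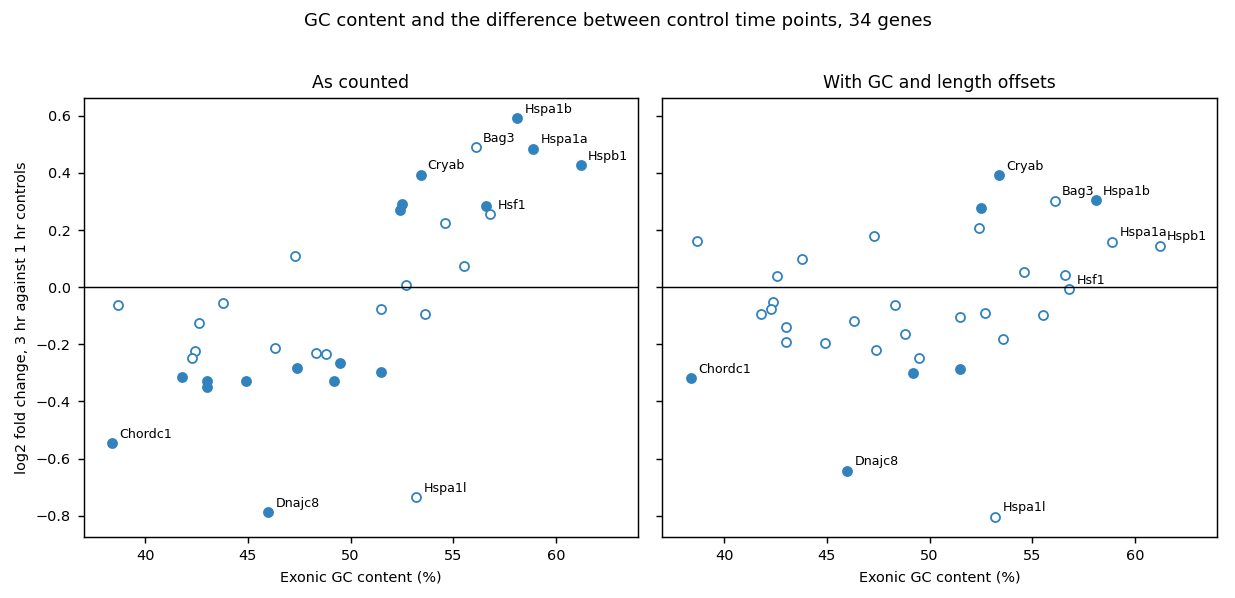
Log2 fold change of 3 hr against 1 hr controls (y axis) against exonic GC content in percent (x axis) for the 34 genes, as counted (left) and with offsets for GC content and length (right), with filled circles for genes that passed the test. On the left the filled circles above 0 all lie at 52.4% GC or more, and on the right Hspa1a and Hspb1 lie near 0.15 while Dnajc8 remains at -0.64.

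Cell type markers also moved between the time points. The summed level of 5 microglial markers ran from 185 to 197 CPM in 1 hr controls and from 125 to 142 CPM in 3 hr controls, and 4 of the 5 were called lower. For 6 endothelial and mural markers the ranges were 104 to 113 and 87.5 to 89.7 CPM, with 4 called lower, and for 6 neuronal markers 5140 to 5660 and 4460 to 4620 CPM. Of the neuronal markers 3 were called lower, and the other 3 had positive values of up to 0.15. Between the LTP time points the microglial sum went from 168 to 193 CPM at 1 hr to 120 to 130 CPM at 3 hr, with 4 of 5 called lower. There 3 of 6 oligodendrocyte markers were called higher, 2 of 6 neuronal markers lower while 3 of the 6 had positive values of up to 0.21, and of the 6 vascular markers 2 lower and 1 higher. Their part in the chaperone values was not tested.

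Other genes of the chaperone network were counted from a list of 80. At 3 hr 1 of 78 tested genes was called after LTP, the HSP70 exchange factor gene Bag5, which fell by 0.27 (SE 0.0618), beside the 6.6% of all genes called at that time. The 8 subunit genes of TRiC, the cytosolic chaperonin, had a median LTP effect of -0.08 on the log2 scale at 1 hr and of -0.15 at 3 hr, and the 15 chaperone genes of the endoplasmic reticulum had medians of -0.03 and -0.06. Over the 78 tested genes of the whole list the medians were -0.05 and -0.12, with 63 and 69 values below 0. At 3 hr the 12 further HSP90 cochaperone genes had a median of -0.16 and the 6 prefoldin genes of -0.16. Between control time points 31 of 79 were called, 14 higher and 17 lower, beside the 32.8% of all genes given above. The metallothionein gene Mt2 (0.82, SE 0.1), the heme oxygenase gene Hmox1 (0.66, SE 0.179) and the endoplasmic reticulum genes Sdf2l1 (0.52, SE 0.0996) and Hspa5 (0.33, SE 0.0769) rose. Of the 15 endoplasmic reticulum genes 4 were called higher and 2 lower, with 8 values above 0, 7 below and a median of 0.0004. The prefoldin gene Pfdn5 fell by 0.57 (SE 0.0784) and the HSP70 partner St13 by 0.37 (SE 0.0711). Between the LTP time points 3 of the 15 endoplasmic reticulum genes were called higher and 4 lower.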

How the data were processed

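Total RNA of 12 slice samples was depleted of ribosomal RNA and sequenced with a stranded kit. The authors deposited raw counts of reads per gene, one table per time point. By the study's methods, reads were aligned with STAR to GRCm38 and counted with Bioconductor packages. The study's text says that expression was taken from coding regions, whereas levels per kb here use the full exonic length. The strand setting of the counting is not given in the sources used here, so opposite-strand overlaps cannot be resolved. Of 41091 IDs, 874 had no GENCODE M21 symbol, and 0 columns of other samples were left unused. Members and gene lists were chosen with earlier results of these data known.

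Genes were filtered with filterByExpr, scaled with TMM and tested with the edgeR quasi-likelihood F test (edgeR 4.0.16, R 4.3.3), with Benjamini-Hochberg adjustment over all genes tested. The thresholds for a call (adjusted p of 0.1, 1.2-fold) and the fits per time point follow the study's methods, which used DESeq, and the difference of LTP effects had no fold minimum. Each time point was fitted alone (5 and 6 libraries), and comparisons between time points used a model of 4 groups (11 libraries). All members are accounted for, and those called in any comparison, together with Hspa1a, Hspa1b, Dnajb1, Hspb1, Hsph1, Hsp90aa1, Hspa8 and Hsf1, are given in more detail. Replicates of a group differed by more than sampling noise (chi-square per degree of freedom of 9.49 to 85.6). The scripts were tested on simulated data.

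Control and LTP libraries of a replicate number came from the same animal by the study's methods. Correlations of their deviations from the group means were -0.0169, -0.134 and 0.0741 for the 1 hr animals, and for the 3 hr animals 0.0297, -0.0384 and 0.194. The alternatives were DESeq2 1.42.0, limma-voom (limma 3.58.1), RLE size factors, total counts, other count filters, a stricter threshold, each library left out, the animal as a block and, chosen after the data were seen, offsets for GC content and length. Columns were matched to libraries by their names. The call of 1 further gene of the wider chaperone network at 1 hr is not reported here.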

Additional observations from a re-analysis of the deposited data

How the results depend on the processing

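With the animal as a replicate block, 2 members were called after LTP at 1 hr in 5 libraries (Dnajb1 and Dnajb5), 1 in 6 libraries, and 3 at 3 hr (Dnajb1, Dnajb5 and Bag3). At 1 hr 2 members passed with no filter on low counts (Dnajb1 and Bag3). At 3 hr 3 passed with DESeq2, total counts, no filter, the model of 4 groups and the offsets, and 2 with at least 10 counts in every library. With each library left out in turn, 1 to 3 were called at 1 hr, 0 to 4 at 3 hr, 10 to 18 between controls and 17 to 19 between LTP groups. Dnajb1 at 1 hr was called in all 17 alternatives, with log2 fold changes of 0.47 to 0.61. Between controls 9 were called with 1 hr control replicate 2 and 7 with the offsets, and between LTP groups 8 with the offsets. The difference of LTP effects called 0 members in every alternative. The causes were not tested.

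Signs turned for the following values, none of which was called as reported above. At 1 hr Hspa1b had -0.0435 with 1 hr control replicate 2 and -0.034 with the replicate block in 6 libraries, and Hsf1 had 0.0716 with the block in 5. At 3 hr Hsph1 had 0.00202 with at least 10 counts and Hspa1b 0.0308 with the offsets. In the difference of LTP effects Hspa8 had -0.00379 with total counts, -0.0107 with at least 10 counts and -0.00638 with the replicate block, and Hspa1b had 0.0104 with 1 hr control replicate 2. Hsf1 between controls, at 0.256 as reported, had -0.00758 with the offsets and was called in 15 of 21 alternatives. With each library left out, Hsf1 at 1 hr ran from -0.0764 to 0.0704. At 3 hr Hspa1a ran from -0.0244 to 0.0631, Hspa1b from -0.185 to 0.0604 and Hsph1 from -0.0943 to 0.0388. The differences of LTP effects ran from -0.0721 to 0.0461 for Hspa8 and from -0.164 to 0.224 for Hspb1, and Hsph1 between LTP groups ran from -0.0155 to 0.122. Low counts limit Hspa1l, and 2 or 3 libraries per group limit every comparison.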
